A study of Rattus norvegicus with 18 samples.

Results

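Calcium buffers, pumps and exchangers were described as 10 genes: the cytosolic buffers Calb1 (calbindin), Calb2 (calretinin) and Pvalb (parvalbumin), the plasma membrane calcium pumps Atp2b1, Atp2b2, Atp2b3 and Atp2b4, the endoplasmic reticulum pump Atp2a2 (SERCA2), and the sodium-calcium exchangers Slc8a1 and Slc8a2. A probe set, the group of oligonucleotides that reads 1 transcript on an Affymetrix array, was taken as a member where the platform annotation gave it 1 of these symbols. This rule found 17 of the 15923 probe sets on the array, which stand for 10 of the 10411 genes it names. The rule used names and no values.

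The study hybridised 18 rat RNA samples to 1 RA230 array each: 9 of the oculomotor nucleus, which lies in the midbrain and drives most eye muscles, and 9 of the spinal cord. Rats were 6, 18 or 30 months old, with 3 arrays per age in each tissue. The strain F344BN is named in the description of the first 2 samples. No treatment or genetic change is given for any animal. Each RNA combined tissue of 4 animals, so that the spread between arrays is that between pools, and the sources used here do not say whether both tissues came from the same animals.

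Calcium that enters a neuron through channels is first bound by soluble buffers such as calbindin, calretinin and parvalbumin. It is then moved out of the cell by the plasma membrane pumps, which bind tightly and carry little, and by the sodium-calcium exchangers, which bind less tightly and carry much, or taken into the endoplasmic reticulum by SERCA pumps. Motor neurons of the eye muscle nuclei are known to contain more calcium-binding protein than most spinal motor neurons and to be spared longer in motor neuron disease, which is why these genes are of interest in the comparison of both tissues.

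Values are MAS5 signals on a linear scale brought to a common trimmed mean, and differences are on the log2 scale. A probe set was tested if its mean log2 signal exceeded 7.459, and called at a limma adjusted p under 0.05 over the 9482 probe sets kept. Of the members, 12 probe sets of 9 genes passed this filter, and a gene with several is read from its brightest one on average, called its main probe set. Slc8a2 did not pass, and its values come from a fit without the filter. Signals of different probe sets are not on a common scale, so no gene's level is set against another's.

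Before the values, 2 features of the arrays bear on the members. On 3 cord arrays, 6 months replicates 1 and 2 and 18 months replicate 2, skeletal muscle transcripts were high: the mean log2 signal of a list of muscle genes was 8.6, 9.46 and 8.39 there and between 7.0 and 7.46 on the other 6 cord arrays. Then 4 arrays, 1 of them among those 3, stood apart in earlier results of these data: replicate 3 of the 30-month oculomotor nucleus, and in the cord replicate 1 at 6 months and replicate 3 at both 18 and 30 months. In each of these 4 groups the pair of arrays without that array had the highest correlation of the 3 pairs. In the cord it was 0.9731 against 0.9607 and 0.9607 at 18 months, and 0.9653 against 0.9625 and 0.9579 at 30 months. Any group of 3 leaves some array out of its best pair, so this does not by itself set an array apart. In the oculomotor nucleus at 6 months the pair without replicate 1 had 0.9725 against 0.9699 and 0.9701.

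The labelled tissues differed in other cell markers as well. Summed signals of 8 matched motor neuron markers were 1969 to 2588 on the oculomotor arrays and 4418 to 5626 on the cord arrays, and the median signal of Chat, the enzyme that makes acetylcholine, was 135 against 342. Not all of this list ran that way: Ret had a median of 736 against 714. Isl1, another motor neuron marker, was at or under the signal floor on 7 oculomotor and 5 cord arrays. Summed signals of 8 dopamine neuron markers were 8986 to 10426 against 2606 to 2963, with a median of 2450 against 91.2 for Th, which makes the precursor of dopamine, while Pitx3 was at the floor on all arrays. Summed signals of 4 markers of GABA and glycine neurons were 5135 to 6781 against 2812 to 4342. Their members did not all run the same way: Gad1, which makes GABA, had a median of 3485 against 1636, and the glycine transporter Slc6a5 had 21.3 against 134, with 7 oculomotor arrays at or under the floor. With 23.6% of all probe sets called lower and 23.6% higher in the oculomotor nucleus over all ages, calls between the tissues were common. All 7 tested microglia markers were called lower there (median log2 difference -0.62), as were 5 of 8 astrocyte markers, with 1 higher, and 4 of 6 oligodendrocyte markers. The part of these cell types in the tissue differences below was not tested, and in bulk RNA fewer cells of a type and less RNA per cell cannot be told apart.

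With all ages averaged, 4 of the 9 genes tested were called higher in the oculomotor nucleus: the buffers Calb1 and Calb2 and the plasma membrane pumps Atp2b3 and Atp2b4. None was called lower by its main probe set. Over all probe sets tested, 47.2% were called in this comparison, 23.6% as higher and 23.6% as lower in the oculomotor nucleus, so a call between these tissues was common. The median log2 difference of the 9 genes was 0.12, beside 0.01 for all probe sets.

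Calb1 encodes calbindin, a fast buffer found in many inhibitory and dopamine neurons. At 6 months its signals in the oculomotor nucleus were 1027, 1098 and 1086, and in the cord 430, 448 and 512. At 18 months they were 890, 841 and 1224 against 438, 413 and 399. At 30 months they were 738, 830 and 1070 against 485, 482 and 333. Every oculomotor array was thus above every cord array, at each age and over all 18.

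Calb1 was 2.22-fold higher in the oculomotor nucleus over all ages (log2 difference 1.15, SE 0.09, 95% interval from 0.96 to 1.35, limma adjusted p = 6.23e-09). Only 94 of the 9482 probe sets had a larger difference in that direction, which is 0.991%. Groups of 9 did not overlap in 14.2% of all probe sets. By age the difference was 1.21 at 6 months (adjusted p = 1.68e-05), 1.22 at 18 months (adjusted p = 1.33e-05) and 1.02 at 30 months (adjusted p = 0.000119). At these ages 26.1%, 26.2% and 21.0% of all probe sets were called, and 40.7%, 44.9% and 33.5% did not overlap between the tissues. Without the 3 cord arrays rich in muscle transcripts the difference over all ages was 1.10, and without the 4 arrays that stand apart it was 1.02. Calb1 also marks Purkinje cells of the cerebellum. Of the 5 matched genes of a Purkinje cell list, 4 were tested, and all 4 were called higher in the oculomotor nucleus (median log2 difference 0.52). Calb1 is itself among these 4, so its own difference enters this count and median. Of all probe sets, 23.6% were called higher. The median signal was 3881 against 2533 in the cord for Pcp4, 735 against 573 for Itpr1 and 222 against 159 for Car8, while Pcp2, too dim to be tested, had 149 against 163. The part of these cells in the Calb1 difference was not tested.

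Calb2 encodes calretinin, a buffer of interneurons and of some brainstem neurons. Its signals at 6 months were 4625, 5036 and 4769 on the oculomotor arrays and 1427, 2381 and 2285 on the cord arrays. At 18 months they were 3264, 4783 and 4667 against 2607, 2539 and 2152. At 30 months they were 3176, 3333 and 3779 against 2282, 2541 and 2408. As with Calb1, the lowest oculomotor array lay above the highest cord array, here 3176 above 2607.

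Over all ages Calb2 was 1.81-fold higher in the oculomotor nucleus (log2 difference 0.86, SE 0.09, 95% interval from 0.66 to 1.05, limma adjusted p = 4.05e-07). The difference was 1.28 at 6 months (2.43-fold, adjusted p = 1.11e-05), 0.78 at 18 months (1.72-fold, adjusted p = 0.00129) and 0.51 at 30 months (1.42-fold, adjusted p = 0.0326). The call at 30 months was lost when any 1 of 5 of the 6 arrays of that age was left out (adjusted p from 0.0512 to 0.109) and in the fit without the filter (adjusted p = 0.0908). Cord replicate 1 at 6 months, the lowest Calb2 signal of all, is both rich in muscle transcripts and 1 of the 4 arrays that stand apart, and without it the difference at 6 months was 1.04.

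Pvalb encodes parvalbumin, a slow buffer of fast-firing neurons and of fast muscle fibres. Its signals were 1215, 1231 and 1382 on the oculomotor arrays and 1045, 1460 and 1158 on the cord arrays at 6 months. At 18 months they were 1075, 1195 and 1376 against 1120, 1292 and 1095. At 30 months they were 1334, 951 and 1150 against 1049, 1128 and 1199. The groups overlapped at every age. Over all ages the means were 1212 ± 142 and 1172 ± 132 (SD, n = 9 each), and the log2 difference was 0.05 with a 95% interval from -0.12 to 0.21 (limma adjusted p = 0.65). The interval leaves out a difference as large as that of Calb1 or Calb2.

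In order of the mean signal, Calb1 ran from 1070 ± 38.2 in the oculomotor nucleus at 6 months over 985 ± 208 at 18 and 879 ± 171 at 30 months to 463 ± 43.2, 433 ± 86.6 and 417 ± 19.3 in the cord at 6, 30 and 18 months (SD, n = 3 each). Neighbouring groups of 1 tissue overlapped, and the groups on both sides of the step between the tissues did not. The order for Calb2 was 4810 ± 209, 4238 ± 846 and 3429 ± 313 on the oculomotor arrays of 6, 18 and 30 months, then 2432 ± 245, 2410 ± 130 and 2031 ± 526 in the cord at 18, 30 and 6 months. Here too the groups of 3 on both sides of the step, 30-month oculomotor nucleus and 18-month cord, did not overlap.

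**Figure D1:**
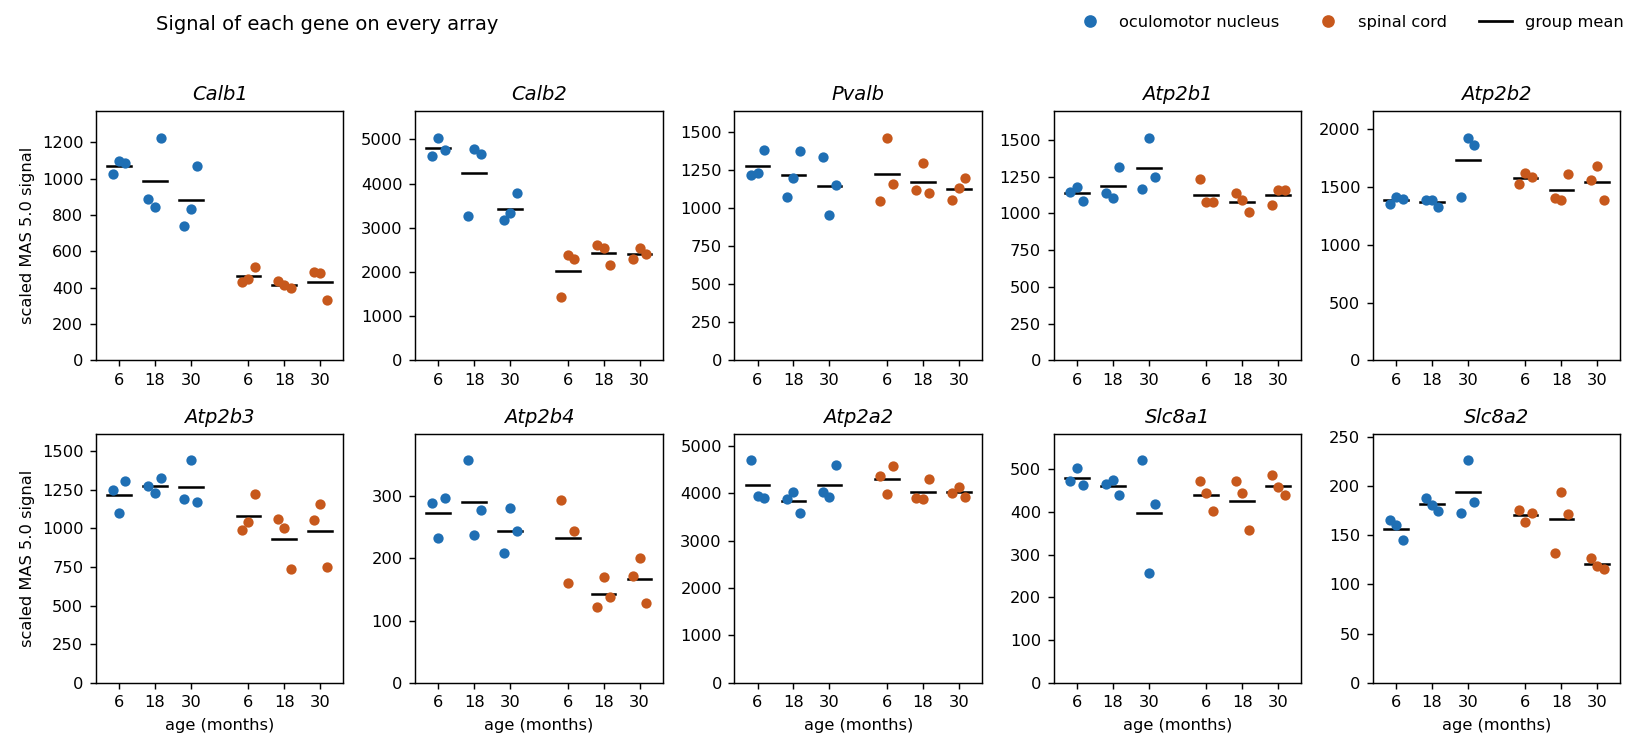
Scaled MAS5 signal (y axis, linear, from 0) of the main probe set of each of the 10 genes on all 18 arrays, by age in months, with oculomotor nucleus in blue, spinal cord in orange and a black bar at each group mean. Calb1 and Calb2 separate the tissues on every array, the tissues overlap at every age for Pvalb, and Slc8a2 in the 30-month cord lies between 116 and 127.

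The 4 plasma membrane pumps are close relatives, each with a gene and promoter of its own. RefSeq promoters of the GRCr8 build were matched for 7 of the 10 genes, all but Calb1, Calb2 and Atp2b3. The 250 bases before the start are shown for Atp2b4, the pump whose called tissue difference was largest, beside Atp2b1 and Atp2b2, which were not called. Capitals mark matches on either strand to TATAAA (found in 12.9% of the 33469 promoters of this length), CCAAT (34.0%), GGGCGG (30.5%) and TGACG (18.2%).
Atp2b4 (chr13:47758877-47759126, minus strand): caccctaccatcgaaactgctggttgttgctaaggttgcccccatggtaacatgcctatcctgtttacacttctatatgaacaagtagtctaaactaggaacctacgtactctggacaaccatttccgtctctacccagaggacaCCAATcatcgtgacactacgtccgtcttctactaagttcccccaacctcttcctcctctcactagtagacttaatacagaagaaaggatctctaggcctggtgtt
Atp2b1 (chr7:35622211-35622460, plus strand): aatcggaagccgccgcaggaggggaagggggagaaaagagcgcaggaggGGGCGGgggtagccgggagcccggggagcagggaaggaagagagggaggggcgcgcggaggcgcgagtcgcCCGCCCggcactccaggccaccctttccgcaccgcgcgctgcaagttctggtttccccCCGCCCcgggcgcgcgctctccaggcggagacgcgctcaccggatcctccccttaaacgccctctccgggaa
Atp2b2 (chr4:148763654-148763903, minus strand): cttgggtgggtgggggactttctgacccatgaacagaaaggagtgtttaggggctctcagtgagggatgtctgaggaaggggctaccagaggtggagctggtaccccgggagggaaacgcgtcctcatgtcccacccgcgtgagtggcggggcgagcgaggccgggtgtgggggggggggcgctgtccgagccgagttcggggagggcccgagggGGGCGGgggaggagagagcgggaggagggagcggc
The Atp2b4 sequence was 46.4% G and C with 6 CpG and held 1 CCAAT, 105 to 101 bases before the start. Atp2b1 was 72.8% G and C with 30 CpG and held 3 matches to GGGCGG, and Atp2b2 was 69.2% with 17 CpG and held 1. Of the other matched genes, Slc8a1 was 35.2% with 5 CpG and Slc8a2 55.2% with 1. Pvalb was 62.8% with 21 CpG and Atp2a2 80.0% with 45. The medians of all promoters were 51.2% and 5 CpG. A link between these sequences and the tissue differences was not tested. A match is a string of letters and not a bound site.

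Atp2b4 encodes PMCA4, a pump found in many tissues. Its signals were dim: 288, 233 and 297 on the oculomotor arrays against 294, 160 and 244 on the cord arrays at 6 months. At 18 months they were 357, 238 and 277 against 121, 170 and 137. At 30 months they were 208, 281 and 243 against 171, 201 and 128. The tissues overlapped at 6 months and not at the later ages, when 44.9% and 33.5% of all probe sets did not overlap.

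Over all ages Atp2b4 was 1.53-fold higher in the oculomotor nucleus (log2 difference 0.62, SE 0.13, 95% interval from 0.35 to 0.89, limma adjusted p = 0.000616). By age the difference was 0.27 at 6 months (adjusted p = 0.422), 1.02 at 18 months (2.03-fold, adjusted p = 0.002) and 0.56 at 30 months (adjusted p = 0.0824). Omission of the 3 cord arrays rich in muscle transcripts brought the value at 30 months past the threshold, at the same 0.56 (adjusted p = 0.0469).

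Atp2b3 encodes PMCA3, a fast pump largely of neurons. Its main probe set gave 1249, 1102 and 1304 on the oculomotor arrays and 987, 1040 and 1223 on the cord arrays at 6 months. At 18 months they were 1274, 1226 and 1329 against 1059, 1002 and 737. At 30 months it gave 1192, 1440 and 1172 against 1052, 1155 and 751. Again the tissues overlapped at 6 months only, beside 44.9% and 33.5% of all probe sets without overlap at 18 and 30 months. The lowest cord signals, 737 and 751, were on replicate 3 at 18 and 30 months, both among the arrays that stand apart.

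Averaged over ages, Atp2b3 was 1.27-fold higher in the oculomotor nucleus (log2 difference 0.34, SE 0.09, 95% interval from 0.16 to 0.52, limma adjusted p = 0.00355). With the muscle list as a covariate the call was lost (0.28, adjusted p = 0.0686). Without the 4 arrays that stand apart the difference was 0.22 (adjusted p = 0.0115). With all arrays the difference was 0.17 at 6 months (limma adjusted p = 0.452). It was 0.38 at 30 months (adjusted p = 0.0847), and this was called in 2 of 29 alternatives. At 18 months it was 0.47 (adjusted p = 0.0281). This call was lost without cord replicate 3 of that age (0.31, adjusted p = 0.162), without any 1 of the 3 oculomotor arrays of that age (adjusted p from 0.0522 to 0.0863), with the muscle list as a covariate (adjusted p = 0.0919) and in the fit without the filter (adjusted p = 0.0704). A second, dim probe set of Atp2b3 gave 109 to 260 in the oculomotor nucleus and 64.5 to 166 in the cord, a difference of 0.69 in the fit without the filter (adjusted p = 0.0274, with 32.5% of all probe sets called in that fit). The last probe set of this gene was at or under the floor on all 18 arrays.

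Atp2b1 encodes PMCA1, the pump present in most cells. Its signals ran from 1084 to 1514 in the oculomotor nucleus and from 1011 to 1232 in the cord, with a log2 difference of 0.12 (95% interval from -0.01 to 0.25, limma adjusted p = 0.111). Under median centring of the arrays the difference was 0.15 and passed the test (adjusted p = 0.0465). At 30 months the signals were 1166, 1514 and 1251 against 1055, 1160 and 1156, which do not overlap, and the difference was 0.21 (adjusted p = 0.164). At that age 33.5% of all probe sets did not overlap between the tissues.

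Atp2b2 encodes PMCA2, a fast neuronal pump known from Purkinje cells and inner ear hair cells. Its main probe set gave a median of 1399 in the oculomotor nucleus, from 1325 to 1926, and of 1565 in the cord, from 1389 to 1682. The difference was -0.04 (95% interval from -0.17 to 0.09, limma adjusted p = 0.603). The other probe set was dimmer, with medians of 369 and 330, and its difference was 0.09 (adjusted p = 0.513).

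Atp2a2 encodes SERCA2, which refills the endoplasmic reticulum and is also the pump of slow muscle and heart. The brightest probe set gave 3589 to 4689 in the oculomotor nucleus and 3870 to 4582 in the cord, a difference of -0.02 (95% interval from -0.14 to 0.09, limma adjusted p = 0.784). A second bright probe set gave 0.16 (adjusted p = 0.0596). The third, with 502 to 661 in the oculomotor nucleus and 573 to 890 in the cord, was called lower there by the test (-0.35, 95% interval from -0.53 to -0.16, adjusted p = 0.0033). The probe sets of Atp2a2 thus disagree, and the direction of this gene between the tissues depends on which is read. The remaining probe set was dim and at or under the floor on 6 arrays.

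Slc8a1 encodes NCX1, the exchanger of heart and of many neurons. Its tested probe set gave a median of 465 in the oculomotor nucleus, from 256 to 520, and of 444 in the cord, from 357 to 487. The difference was -0.00 (95% interval from -0.22 to 0.21, limma adjusted p = 0.974). The single low value, 256, was oculomotor replicate 2 at 30 months. The other Slc8a1 probe set was at or under the floor on 14 of the 18 arrays and did not pass the filter.

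Slc8a2 encodes NCX2, the exchanger most typical of brain. Its signals were dim, under the filter: 165, 160 and 145 on the oculomotor arrays and 176, 163 and 173 on the cord arrays at 6 months. At 18 months they were 188, 181 and 175 against 132, 194 and 172. At 30 months they were 173, 226 and 184 against 127, 119 and 116. The tissues overlapped at 6 and 18 months and lay apart at 30 months, as did 33.5% of the probe sets that passed the filter.

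In the fit without the filter, the Slc8a2 difference over all ages was 0.23 (limma adjusted p = 0.0267), a call made for 32.5% of all probe sets in that fit. By age it was -0.13 at 6 months (limma adjusted p = 0.603), 0.14 at 18 months (adjusted p = 0.554) and 0.68 at 30 months (SE 0.13, adjusted p = 0.00283). In that fit 13.0% of all probe sets were called at 30 months. The 30-month cord arrays were the 3 lowest of all 18. From 6 to 30 months the change was 0.31 in the oculomotor nucleus (adjusted p = 0.654) and -0.50 in the cord (adjusted p = 0.166). The test of the difference between both changes gave 0.81 (SE 0.18, unadjusted p = 0.000606, limma adjusted p = 0.4), so the difference in course between the tissues did not pass over all probe sets. In that fit 0.0126% of all probe sets passed this test.

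**Figure D2:**
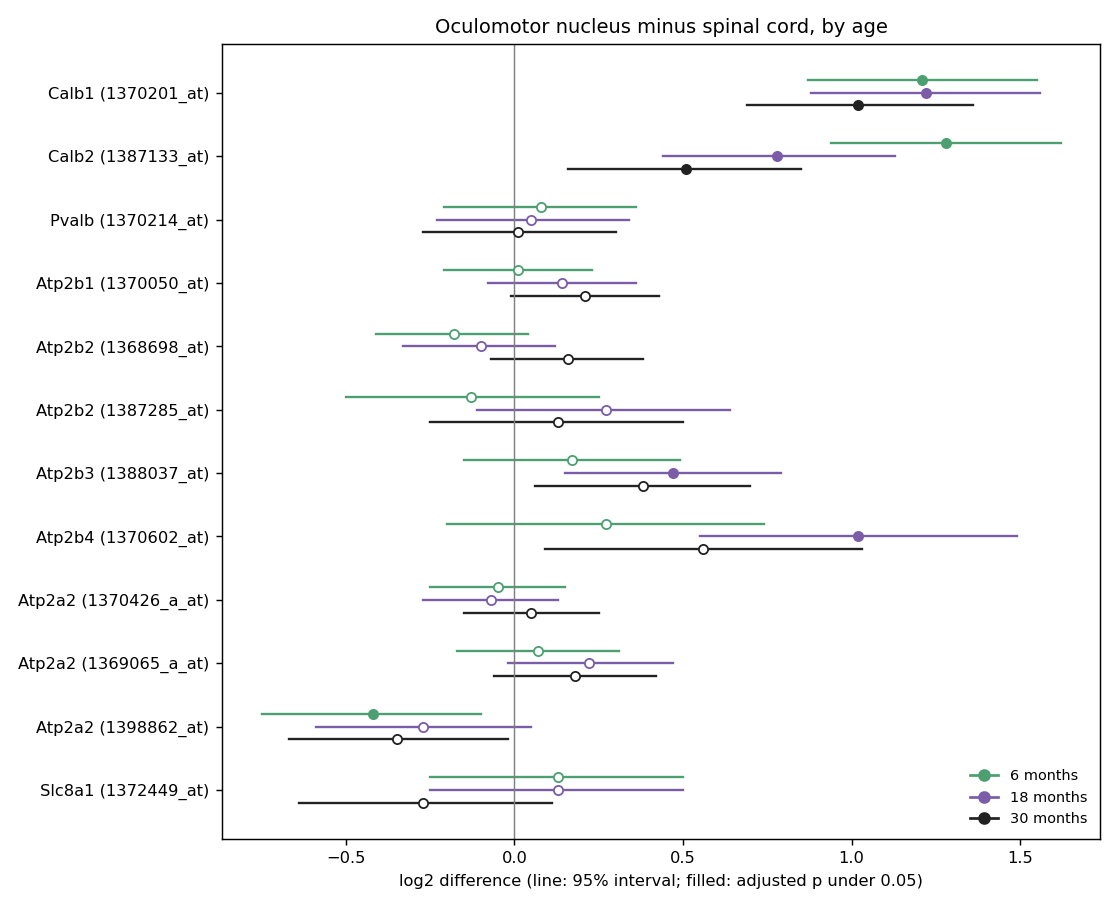
Log2 difference, oculomotor nucleus minus spinal cord, at 6, 18 and 30 months for each of the 12 tested probe sets of 9 genes, with 95% intervals as lines and filled circles where the adjusted p is under 0.05. Calb1 stays between 1.02 and 1.22, Calb2 goes from 1.28 to 0.51, and the 3 Atp2a2 probe sets lie on different sides of 0.

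With age, no member was called in either tissue. In the oculomotor nucleus 0 of 9 genes passed between 18 and 6 months or between 30 and 6 months, beside 0.0% and 0.211% of all probe sets, and at an unadjusted p under 0.05 there were 0 and 2 (3.39% and 8.12% of all). Between 30 and 18 months 0 passed as well (0.0105% of all), with 1 at an unadjusted p under 0.05 (4.71% of all). In the cord 0 of 9 passed between 18 and 6, 30 and 6, or 30 and 18 months (0.728%, 0.221% and 0.0105% of all), with 1, 0 and 0 at an unadjusted p under 0.05 (10.3%, 10.7% and 2.14% of all). A test over all 3 ages called 0 members in either tissue, beside 0.0844% of all probe sets in the oculomotor nucleus and 0.411% in the cord. Calls with age were thus rare among all genes at 3 arrays a group.

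The widest age difference of a buffer was that of Calb2 in the oculomotor nucleus. Its 30-month signals, 3176 to 3779, all lay below its 6-month signals, 4625 to 5036, and 13.9% of all probe sets did not overlap between these groups. The log2 difference was -0.49 (95% interval from -0.83 to -0.15, unadjusted p = 0.00732, limma adjusted p = 0.396). In the cord the same difference was 0.28 (95% interval from -0.06 to 0.62, adjusted p = 0.582). Without the low 6-month array of 1427 it was 0.05 (adjusted p = 0.92).

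The Calb2 change from 6 to 30 months was thus of opposite sign in the tissues, with a difference between the changes of -0.77 (95% interval from -1.26 to -0.29, unadjusted p = 0.00342, limma adjusted p = 0.712). No probe set of the array passed this test (0.0%). Without cord replicate 1 at 6 months the value was -0.54 and without the 4 arrays that stand apart -0.61. Over all alternatives it ran from -0.91 to -0.54.

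Calb1 in the oculomotor nucleus was lower by a smaller amount at 30 months (-0.30, 95% interval from -0.64 to 0.04, limma adjusted p = 0.645), and its 30-month signals of 738 to 1070 overlapped with the 1027 to 1098 at 6 months. Its cord difference was -0.11 (adjusted p = 0.856). For Pvalb the differences were -0.17 in the oculomotor nucleus (adjusted p = 0.79) and -0.11 in the cord (adjusted p = 0.833). All 3 buffers therefore had negative values in the oculomotor nucleus, none past the test.

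Among the pumps, Atp2b2 in the oculomotor nucleus had signals of 1353, 1417 and 1399 at 6 months and of 1391, 1385 and 1325 at 18 months. At 30 months they were 1415, 1926 and 1863. The last 2 arrays were high and the first 30-month array was level with the younger ones. The difference between 30 and 6 months was 0.31 (95% interval from 0.08 to 0.53, unadjusted p = 0.0104, limma adjusted p = 0.433). Without that first array the rise was called (0.45, adjusted p = 0.0416), and without replicate 2 the difference was 0.22 (adjusted p = 0.71). The dimmer Atp2b2 probe set had the other sign there, -0.21 (adjusted p = 0.808), so the probe sets disagree.

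In the cord that dimmer Atp2b2 probe set gave 481, 377 and 397 at 6 months. At 18 months it gave 247, 307 and 330, followed by 371, 327 and 227 at 30 months. Both older groups lay below the 6-month group, and 13.6% and 13.1% of all probe sets did not overlap between 18 and 6 and between 30 and 6 months there. The differences were -0.51 at 18 months (unadjusted p = 0.0108, limma adjusted p = 0.28) and -0.46 at 30 months (adjusted p = 0.35). The main probe set gave -0.10 and -0.03.

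Atp2b4 in the cord had means of 233 ± 67.5 at 6 months, 142 ± 25.1 at 18 months and 167 ± 36.6 at 30 months (SD, n = 3 each). The difference between 18 and 6 months was -0.68 (95% interval from -1.15 to -0.21, unadjusted p = 0.00712, limma adjusted p = 0.232). It was -0.49 without cord replicate 1 at 6 months and -0.93 without replicate 2. In the oculomotor nucleus the same difference was 0.08 (adjusted p = 1.0), and the difference between the tissues in this change was 0.76 (unadjusted p = 0.028, adjusted p = 0.928).

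The remaining pumps and the exchanger Slc8a1 were not called either. From 6 to 30 months they were 0.20 for Atp2b1, 0.06 for Atp2b3 and 0.00 for Atp2a2 in the oculomotor nucleus (limma adjusted p from 0.643 to 0.997). In the cord they were 0.00, -0.15 and -0.10. Slc8a1 gave -0.33 in the oculomotor nucleus (adjusted p = 0.66), a value that rests on replicate 2 at 30 months and was -0.04 without it. The test of the difference between the tissues called 0 of 9 genes for the change to 18 months and 0 of 9 for that to 30 months, with 2 and 2 at an unadjusted p under 0.05 (5.07% and 5.47% of all probe sets).

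**Figure D3:**
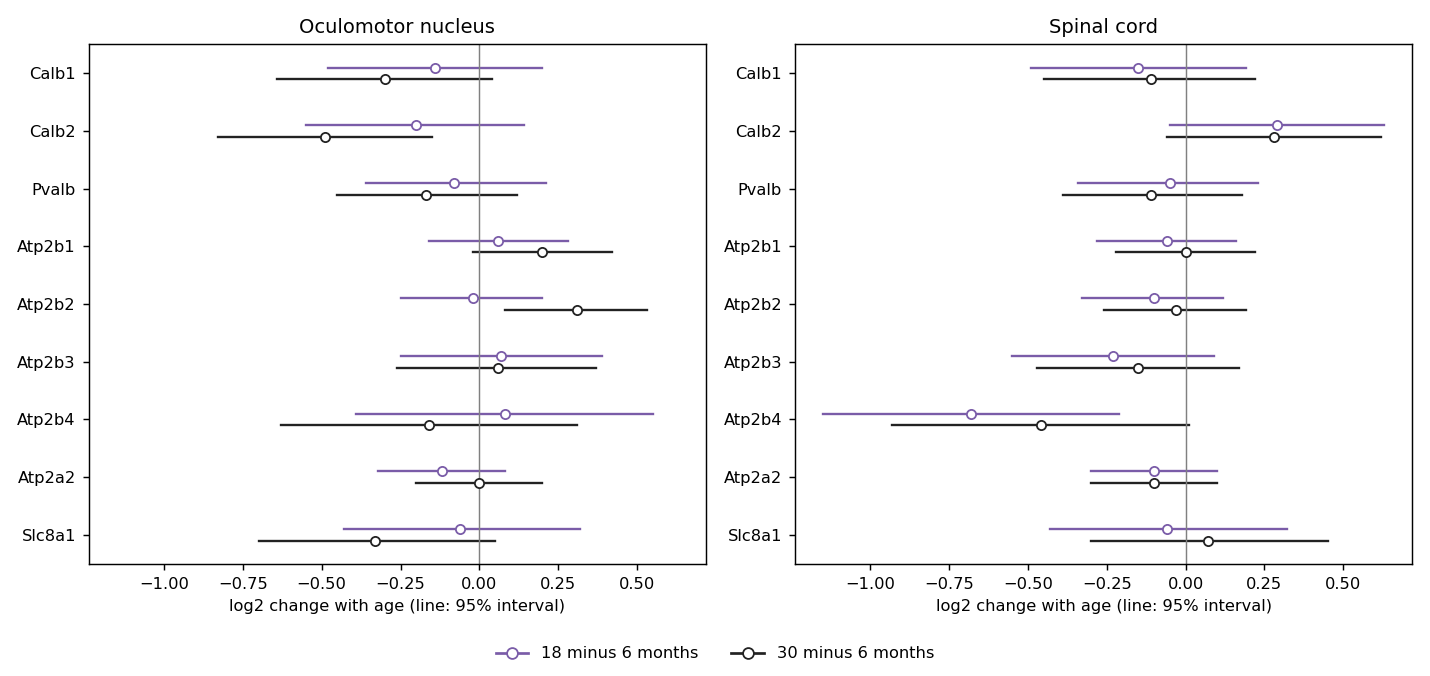
Log2 change from 6 to 18 months (purple) and from 6 to 30 months (black) in the oculomotor nucleus, left, and the spinal cord, right, for the main probe set of each of the 9 tested genes, with 95% intervals as lines. No circle is filled because no change passed the test, and the values farthest from 0 are -0.49 for Calb2 at 30 months in the oculomotor nucleus and -0.68 for Atp2b4 at 18 months in the cord.

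Parvalbumin and the SERCA pumps are abundant in skeletal muscle, so the members were set beside the muscle list on the cord arrays. Pvalb was 1045, 1460 and 1292 on the 3 cord arrays rich in muscle transcripts and 1049 to 1199 on the other 6, so that its lowest and its highest cord value were both on muscle-rich arrays. Atp2a2 was 4351, 3977 and 3870 there and 3897 to 4582 elsewhere. Atp2a1, the SERCA pump of fast muscle and itself in the muscle list, was 898, 1978 and 773 there and 105 to 199 elsewhere. With the muscle list as a covariate the tissue difference of Pvalb was 0.13 (limma adjusted p = 0.32), and that of Calb1 was 1.11.

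**Figure D4:**
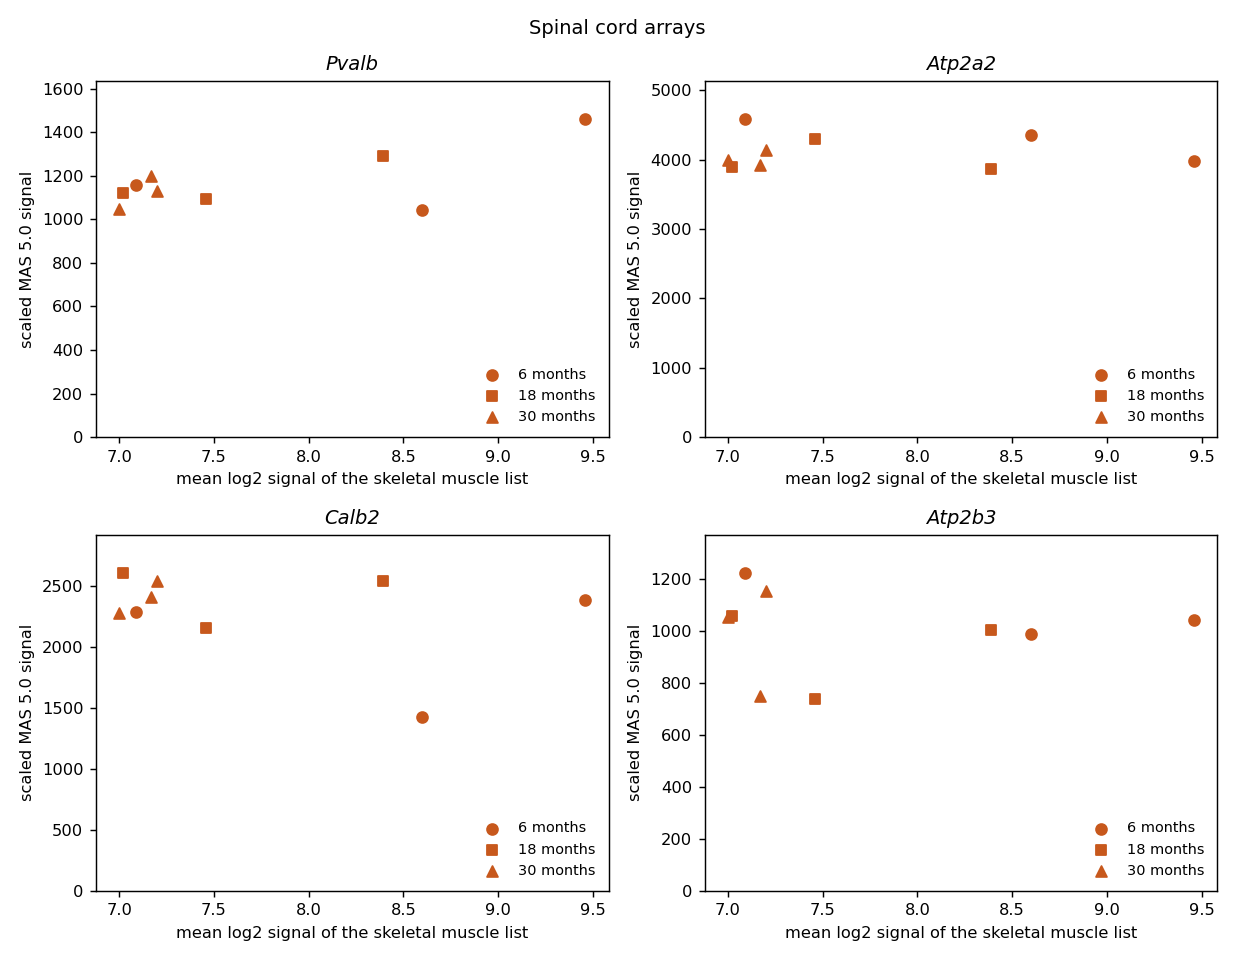
Scaled MAS5 signal of Pvalb, Atp2a2, Calb2 and Atp2b3 on the 9 spinal cord arrays (y axis, linear, from 0) against the mean log2 signal of the skeletal muscle list on the same array, with a marker shape for each age. The 3 arrays at 8.39 or more hold the highest Pvalb signal, 1460, and the lowest Calb2 signal, 1427, while Atp2a2 keeps between 3870 and 4582 on all 9.

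The other genes that handle calcium were read from 5 lists of 80 genes, of which 67 had a probe set and 48 were tested. Between the tissues 18 were called higher and 7 lower in the oculomotor nucleus over all ages, with a median log2 difference of 0.10, beside 47.2% called and a median of 0.01 over all probe sets. Of 8 other pumps and exchangers, 1 was higher and 1 lower. Slc24a3, a potassium-dependent sodium-calcium exchanger, was higher (1235 ± 304 against 842 ± 110, SD, n = 9 each, log2 difference 0.52, limma adjusted p = 0.000227), and Atp2a1 was lower (-1.02, adjusted p = 0.0275), its cord signal being that of the muscle-rich arrays above.

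Of 8 voltage-gated channel subunits, through which calcium enters, 5 were called higher and 1 lower, with a median of 0.62. Of all probe sets, 23.6% were called higher and 23.6% lower in this comparison. Cacnb3, a beta subunit that brings channels to the membrane, was 447 ± 34.4 in the oculomotor nucleus and 162 ± 28.3 in the cord (SD, n = 9 each, log2 difference 1.48, limma adjusted p = 6.54e-11). The pore subunit Cacna1b of N-type channels gave 1.18 and the accessory subunit Cacna2d1 gave 1.10. Cacnb2 gave 0.73 and the T-type pore subunit Cacna1g 0.50, while Cacna2d3 was lower at -0.21.

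Calcium sensors and their kinases had 9 of 15 called higher and 3 lower, with a median of 0.23. Beside this count and those of the store and mitochondrial lists below stand 23.6% of all probe sets called higher and 23.6% lower. Hpcal4, Hpca and Hpcal1, neuronal sensors of 1 family, gave 0.74, 0.60 and 0.51, and the kinase subunit Camk2b gave 0.56. The lower ones were Cabp1 (-0.49), Camk2g (-0.27) and the calcineurin subunit Ppp3ca (-0.21). Of 10 genes of the endoplasmic reticulum store and of its refilling, the release channel Itpr1 was higher (0.25). Lower were Orai1 (-0.38), a plasma membrane channel through which the store is refilled, and the release channel Itpr2 (-0.37). Of 7 mitochondrial uptake genes, Vdac1 and Letm1 were higher (0.23 and 0.22). With age, 0 of the 48 were called in any comparison, nor in the tests of a difference between the tissues. At an unadjusted p under 0.05 there were 1 to 9 of the 48. The 9 were in the cord between 30 and 6 months, beside 10.7% of all probe sets. Between 18 and 6 months there were 5 in the cord (10.3% of all), and between 30 and 18 months 1 (2.14% of all).

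**Figure D5:**
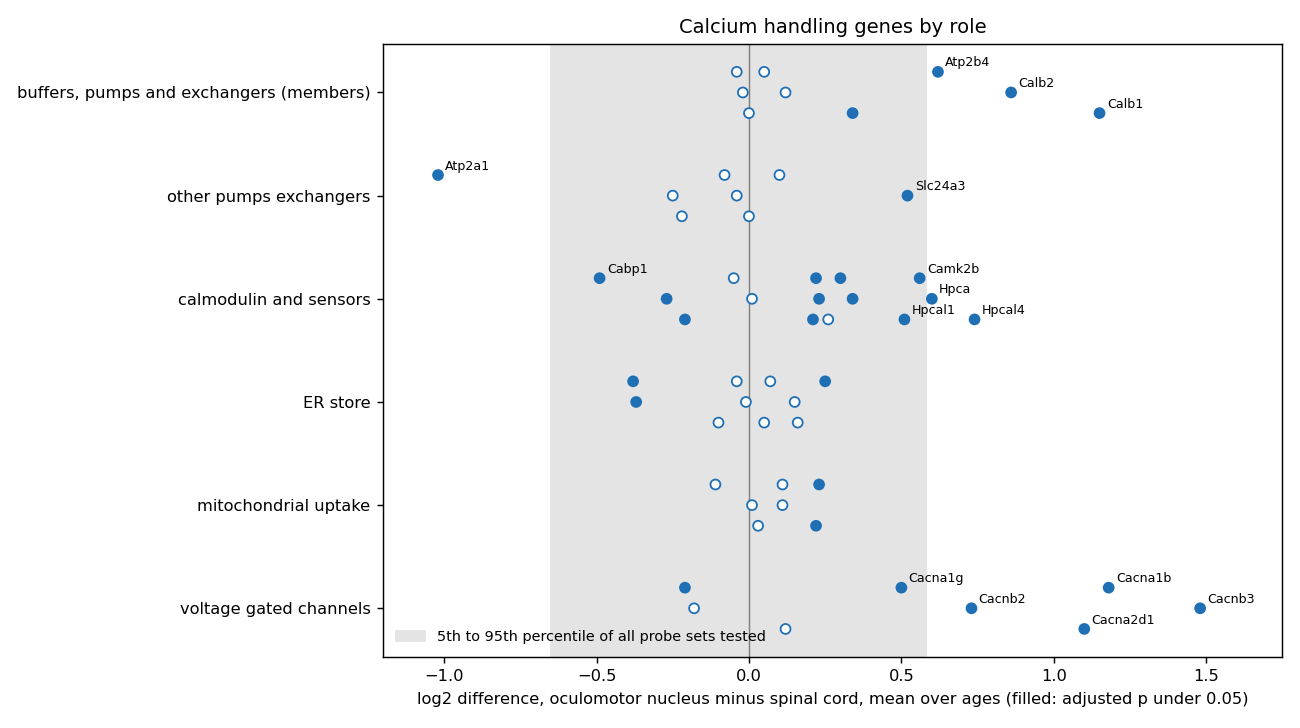
Log2 difference, oculomotor nucleus minus spinal cord over all ages, of the 9 tested buffers, pumps and exchangers and of the 48 other calcium genes by role, with filled circles where the adjusted p is under 0.05 and a grey band from -0.65 to 0.58, the 5th to 95th percentile of all probe sets tested. To the right of the band lie Calb1, Calb2, Atp2b4, the sensors Hpca and Hpcal4 and the channel subunits Cacna1b, Cacnb2, Cacnb3 and Cacna2d1, and to the left Atp2a1.

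Likeness over arrays was measured as Pearson's r of log2 signals with the mean of each tissue removed, over the 18 arrays, with no test. The points share the array platform and its scaling, and the tissue steps were taken out. Genes closest to Calb1 were Ppp3cb (r = 0.81), Gng3 (0.77) and Pnck (0.76), and those closest to Calb2 were Terf2ip (0.77), Ppm1g (0.75) and Csnk1d (0.73). Pvalb was closest to Oxa1l (0.86), Ndufs7 (0.83) and Vps26a (0.80). For the pumps the closest were Tut7 for Atp2b1 (0.78), Cep350 for Atp2b2 (0.87), Iqsec1 for Atp2b3 (0.91), Exoc1 for Atp2b4 (0.85) and Tspan7 for Atp2a2 (0.82). Slc8a1 was closest to Arhgap35 (0.93). Each is the highest value over all tested genes outside the members, so a high r is not in itself a finding.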

How the data were processed

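The authors summarised the arrays with MAS5, per the labels, and deposited linear intensity values without detection calls. The labels give 3 replicates a group where the design text speaks of 4, and were followed. Each array had a 2% trimmed mean of 500.083 to 500.101, and multiplying by 0.999981 to 1.00002 made these equal. Anything below 66.4, the 20th percentile of the pooled scaled signals, was set to that floor, and log2 was then taken of these values. Without 57 controls, 9482 probe sets had a mean above the pooled 40th percentile.

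These were fitted in R 4.3.3 with limma 3.58.1, using 6 group means, eBayes and a mean-variance trend (12 residual degrees of freedom, 18.8 with the prior). Tests were 2-sided, adjusted by Benjamini-Hochberg over all probe sets kept. The code was tested on simulated data. Platform symbols were updated through Entrez identifiers and RefSeq. Every member probe set is named, of the other calcium genes those called, up to 6 a list and direction, and for likeness the 3 closest genes. Members, lists and most alternatives were chosen with earlier results of these data known. Fold changes are 2 to the power of a difference of mean log2 signals, and levels are means of scaled signals. The number of arrays limits the precision, and p-values measure the spread between pools.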

Additional observations from a re-analysis of the deposited data

How the results depend on the processing

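Under alternatives other than the omission of 1 array, all counts of members called stayed within 1.5 times of their values. Of the members' log2 differences, 906 of 927 kept direction and side of the threshold under these alternatives, and 1421 of 1458 with 1 array left out. Most of these differences were not called in the main fit and had no call to lose, and those that vanished on rounding counted as keeping direction. A call was lost in 4 and 9 of these values. Calb2 between the tissues at 30 months and Atp2b3 at 18 months each lost it in 6 of 29 alternatives. With 1 array left out, members called ranged from 1 to 4 between the tissues at 30 months, against 2 with all arrays. It was 4 without oculomotor replicate 1, and 1 without oculomotor replicate 2 or 3 or cord replicate 1 or 3. Of all 9482 probe sets, 1521 to 2125 were called at 30 months with 1 array left out, against 1988 with all arrays. Between 30 and 6 months in the oculomotor nucleus members called ranged from 0 to 1, and all probe sets called from 4 to 69. Of 45 same-numbered pairs across groups, 8 had deviations correlated over 0.1, with a range from -0.26 to 0.5. In 1 of the 15 pairs of groups, the 30-month oculomotor nucleus with the 30-month cord, all 3 were over 0.1 (0.12, 0.23 and 0.5). Both arrays of replicate 3 there are among those that stand apart. In the other 14 not all 3 were over 0.1. A low correlation cannot show whether same-numbered samples shared animals. With the number as a replicate block, 4 members were called between the tissues over all ages, 2, 4 and 2 at 6, 18 and 30 months, and 0 with age. The block changed no member's call. Of all 9482 probe sets that fit called 4462 between the tissues over all ages, 2477, 2525 and 2026 at 6, 18 and 30 months, and at most 51 with age.

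Signs turned in 37 values of 20 differences, none of them called, and the cause was not tested. This count is a lower bound, because a difference that vanished on rounding could not count as turned. An example is Slc8a1 between the tissues over all ages, which ran from -0.08 to 0.09 over the alternatives. Quantile normalization gave -0.01 for Atp2b1 between the tissues at 6 months and -0.03 for Atp2a2 at 30 months. With the muscle list as a covariate Pvalb in the cord gave 0.03 at 18 and 0.03 at 30 months against 6. Without the 3 muscle-rich arrays Atp2b3 between the tissues at 6 months gave -0.01, and Slc8a1 in the cord at 18 months 0.03. Without the 4 arrays that stand apart, an alternative chosen after seeing the data, the tissue difference was -0.03 for Pvalb at 6 months and -0.03 for Atp2a2 at 30 months. There the cord change was 0.05 for Atp2b1 and 0.12 for Slc8a1 at 18 months, and 0.01 for Calb1 and 0.02 for Atp2b2 at 30 months. The tissue difference in the change to 30 months was 0.08 for Pvalb and -0.07 for Atp2b4.

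With 1 array left out, the tissue difference ranged for Pvalb from -0.03 to 0.21 at 6 months, from -0.04 to 0.14 at 18 months and from -0.10 to 0.14 at 30 months. For Atp2b1 at 6 months it ranged from -0.02 to 0.08, and at 30 months from -0.02 to 0.10 for Atp2a2 and from -0.49 to 0.02 for Slc8a1. Slc8a1 was called lower there (adjusted p = 0.0467) without oculomotor replicate 1. The oculomotor change to 18 months ranged from -0.17 to 0.01 for Pvalb, from -0.02 to 0.11 for Atp2b1 and from -0.08 to 0.21 for Atp2b4, and that of Atp2b3 to 30 months from -0.04 to 0.11. In the cord the change to 18 months ranged from -0.16 to 0.08 for Pvalb and from -0.14 to 0.06 for Slc8a1. To 30 months it ranged from -0.21 to 0.06 for Calb1, from -0.21 to 0.03 for Pvalb, from -0.09 to 0.04 for Atp2b2 and from -0.28 to 0.03 for Atp2b3. The tissue difference in the change to 30 months of Pvalb ranged from -0.20 to 0.06.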
